A study of Homo sapiens with 6 samples.

Results

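The Krüppel-like factors (KLF) are transcription factors that bind GC-rich DNA through zinc fingers at the carboxyl end of the protein. The 10 members described here, KLF2, KLF3, KLF4, KLF6, KLF7, KLF9, KLF10, KLF11, KLF13 and KLF16, were taken by gene symbol from a table of 42902 Gene IDs, and all 10 were present and passed the filter on low counts. Their levels were compared between 3 control libraries (shNC, a hairpin without a target) and 3 knockdown libraries (shRRM2, a short hairpin RNA that targets RRM2), all made from PANC-1 cells. PANC-1 is an established line from a human pancreatic ductal carcinoma, and the RRM2 protein is the smaller of the subunits of ribonucleotide reductase, which supplies deoxynucleotides for DNA synthesis. The labels give the genotype of the control cells as WT and their treatment as shControl, with shRRM2 under both headings for the knockdown cells. They name neither the hairpin sequences and their number, nor the time after delivery, nor whether each library had a culture of its own. A p-value here thus weighs only how far the libraries spread, and that spread may be technical. A change that follows from this hairpin cannot be told apart from one that follows from the loss of RRM2.

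KLF proteins and the related SP proteins recognise GC boxes and CACCC elements, and much of what sets the KLF proteins apart from each other lies in the amino-terminal part, which recruits cofactors. KLF2, KLF4, KLF6 and KLF7 belong to a class that can bind acetyltransferases and mostly activates transcription. KLF3 recruits the corepressor CtBP, and KLF9, KLF10, KLF11, KLF13 and KLF16 carry a motif that binds the corepressor SIN3A. Several KLF genes are themselves induced quickly by growth factors, stress or cytokines, among them KLF4, KLF6 and KLF10, and in pancreatic tissue KLF4 is known for its part in the change of acinar cells to duct-like cells.

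RRM2 stood at 203.8, 192.4 and 203 CPM in the shNC libraries and at 40.5, 40.7 and 39.6 CPM in the shRRM2 libraries, so that the knockdown libraries held 20.2% of the control level. CPM are counts per 1000000, on library sizes scaled by the TMM method. Total counts ran from 16606947 to 23300433 per library, which puts a gene at 1 CPM at 16.6 to 23.3 counts. Of 15866 tested genes, 26.0% were higher and 26.1% lower in shRRM2 at an adjusted p below 0.05 in edgeR's quasi-likelihood test, 52.1% in all. Each adjusted p below is from that test, with the Benjamini-Hochberg adjustment over all tested genes, unless another tool is named. In such a background, passing the threshold says little about a gene by itself, so sizes and library values are given with each call. Cells were measured in bulk, so a change in the number of cells that express a gene cannot be told apart from a change in RNA per cell.

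To show the DNA in front of members that rose and of a member that did not pass the test, the 250 bases before the annotated start are given for KLF2 (chr19:16324576-16324825, plus strand), KLF4 (chr9:107489770-107490019, minus strand), KLF6 (chr10:3785210-3785459, minus strand) and KLF13 (chr15:31326585-31326834, plus strand), written 5′ to 3′ on the strand of the gene. KLF6 and KLF4 had the largest rises in CPM, KLF2 the largest fold change, and KLF13 the highest CPM among the members that did not pass. The sequences are from RefSeq, build GRCh38.p14. Capitals mark matches on either strand, and adjoining or overlapping matches run together. The GC box was searched as GGGCGG. The second motif was the CACCC box, with those letters. The TATA box was searched as TATAA. The MEF2 site was searched as the bases CTA and TAG with any 4 bases between them.
KLF2: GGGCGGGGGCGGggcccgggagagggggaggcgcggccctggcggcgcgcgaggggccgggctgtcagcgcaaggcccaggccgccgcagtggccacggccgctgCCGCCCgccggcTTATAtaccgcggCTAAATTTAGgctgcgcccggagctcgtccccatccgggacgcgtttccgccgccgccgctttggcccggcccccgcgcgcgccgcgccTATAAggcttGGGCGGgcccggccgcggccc
KLF4: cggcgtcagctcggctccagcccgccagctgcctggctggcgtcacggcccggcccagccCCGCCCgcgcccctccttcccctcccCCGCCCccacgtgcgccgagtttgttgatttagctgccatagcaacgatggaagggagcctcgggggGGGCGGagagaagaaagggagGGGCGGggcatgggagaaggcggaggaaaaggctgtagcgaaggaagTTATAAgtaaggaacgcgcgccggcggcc
KLF6: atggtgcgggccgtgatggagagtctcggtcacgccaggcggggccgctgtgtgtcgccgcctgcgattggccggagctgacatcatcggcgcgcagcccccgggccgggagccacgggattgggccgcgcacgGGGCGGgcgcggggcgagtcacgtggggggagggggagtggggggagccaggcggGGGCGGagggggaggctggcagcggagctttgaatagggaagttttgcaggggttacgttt
KLF13: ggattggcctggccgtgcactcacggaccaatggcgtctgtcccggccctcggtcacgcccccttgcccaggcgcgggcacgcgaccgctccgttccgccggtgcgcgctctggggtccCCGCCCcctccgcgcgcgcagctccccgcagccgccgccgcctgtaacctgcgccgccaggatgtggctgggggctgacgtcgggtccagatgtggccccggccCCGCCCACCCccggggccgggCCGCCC
The KLF2 window held 4 GC boxes, a TATA match whose first base lies 31 bases before the start, a second TATA match on the other strand, and CTAAATTTAG, a match to the MEF2 site that begins 120 bases before the start. Among 35116 RefSeq windows of the same length, 2.36% held the MEF2 pattern and 0.515% held it with only A or T in the 4 open positions, as in KLF2. KLF4 had 4 GC boxes and a palindromic TATA match that begins 29 bases before the start and is read on both strands. KLF6 had 2 GC boxes and no TATA match. KLF13 had 3 GC boxes, 1 of which overlaps its CACCC box. GC boxes are common, with 42.6% of all windows holding at least 1, as are CACCC boxes with 54.7% and TATA matches with 18.9%. Windows of 8 members were searched, 12 windows in all since KLF7 and KLF11 have several annotated starts. A GC box lay in at least 1 window of 7 of the 8 members, a count per member, whereas the 42.6% is per window. KLF9, whose window has a GC content of 32.4% against a median of 58% over all windows, was the member without a GC box. The printed windows of KLF2, KLF4, KLF6 and KLF13 had GC contents of 80%, 69.2%, 72.4% and 78.8%. KLF3 and KLF10 were not searched. A CArG box, the binding site of SRF, was found in 1 of the 4 windows of KLF7 and in 1.16% of all windows, and an AP-1 site (TGANTCA) in none of the 12 windows and in 6.57% of all windows. The cyclic AMP element TGACGTCA lay in 1 of the 2 KLF11 windows and in 1.65% of all windows, and that KLF11 window also matched the open MEF2 pattern, with G and C in its middle positions. These matches describe letters in the windows and do not show that a factor binds.

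The 4 activators among the members rose in the knockdown, by 1.21-fold to 3.41-fold. KLF5, which is not among the 10 but belongs to the same class, did not pass the test at a similar depth to KLF4 (98.0 CPM in the control, log2 fold change −0.06, adjusted p = 0.340). KLF2, best known as the factor induced by blood flow in endothelium and as a keeper of quiescence in lymphocytes, was counted 22, 25 and 22 times in the shNC libraries and 58, 105 and 70 times in the shRRM2 libraries. These counts correspond to 1.257, 1.084 and 1.336 CPM against 3.28, 5.29 and 3.87 CPM. Every knockdown library was above every control library, and shRRM2 replicate 2 was the highest. The gene (Gene ID 10365) spans positions 16324826 to 16328685 of chromosome 19 in GRCh38.p14. The log2 fold change (shRRM2 over shNC) was 1.77 with a standard error (SE) of 0.255 and an adjusted p of 4.52e-07, a 3.41-fold rise with a 95% interval from 2.38 to 4.89. Without shRRM2 replicate 2 it was 1.56 (adjusted p = 1.27e-05). The coefficient of variation of KLF2 was 24.9% in the knockdown libraries, the largest of any member in either group, and at 1.23 CPM in the control it was the least abundant member by reads.

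KLF6 (Gene ID 1316, chromosome 10, 3775996 to 3785209), a factor induced by injury and stress that is known to activate TGFB1 and TGF-beta receptor genes, had the next largest fold change and the largest rise in CPM. It stood at 23.2, 25.9 and 25.1 CPM in shNC and at 44.4, 43.7 and 41.9 CPM in shRRM2. The lowest knockdown library was well above the highest control library, and the groups were tight, with coefficients of variation of 5.67% and 2.94%. This is 0.81 on the log2 scale (SE 0.0700, adjusted p = 1.15e-11), a 1.75-fold rise with a 95% interval from 1.58 to 1.93. KLF7 (Gene ID 8609, chromosome 2, 207074137 to 207173851), known for its role in axon growth, measured 12.97, 12.15 and 11.54 CPM in the control libraries and 14.88, 17.97 and 16.79 CPM in the knockdown libraries. Its groups did not overlap, although shNC replicate 1 and shRRM2 replicate 1 came within 2 CPM of each other. The rise was 0.44 on the log2 scale (SE 0.107, adjusted p = 0.000786), or 35.6% with a 95% interval from 16.61% to 57.57%.

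KLF4 (Gene ID 9314, chromosome 9, 107484852 to 107489769), a regulator of epithelial differentiation and of cell cycle arrest, was the most abundant member of its class. Its values were 83.1, 82.2 and 85.5 CPM in shNC and 99.6, 105.6 and 96.9 CPM in shRRM2. The groups were clearly apart, but the change was small in proportion, 0.27 on the log2 scale (SE 0.0458, adjusted p = 7.26e-06), or 20.6% with a 95% interval from 13.03% to 28.63%. In reads, however, its gain of 17.1 CPM was close to the 18.6 CPM of KLF6 and above the 2.92 CPM of KLF2. KLF3 (Gene ID 51274, chromosome 4, 38664199 to 38701517), the CtBP-binding repressor, rose by a similar proportion. It was at 41.0, 40.4 and 39.4 CPM in shNC and at 46.3, 48.3 and 49.8 CPM in shRRM2, without overlap. Its log2 fold change was 0.26 (SE 0.0603, adjusted p = 0.000536), or 19.5% with a 95% interval from 9.77% to 30.2%.

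**Figure D1:**
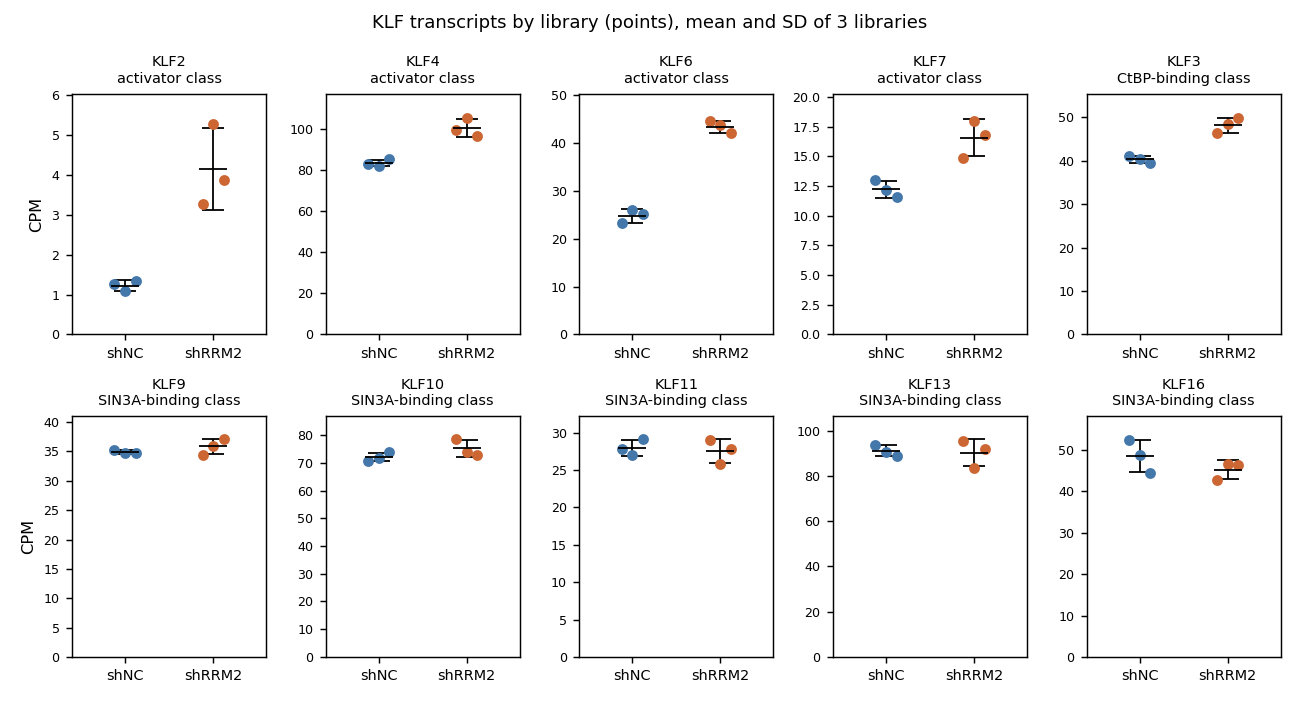
CPM of each of the 10 KLF genes in each library (points, 3 per group), with the mean and SD as bars; each panel has its own vertical axis, which starts at 0. The shRRM2 points lie above all shNC points for KLF2, KLF4, KLF6, KLF7 and KLF3, and the groups overlap for KLF9, KLF10, KLF11, KLF13 and KLF16.

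None of the 5 members of the SIN3A-binding class passed the test, and the groups overlapped for each of them. KLF10 (Gene ID 7071, chromosome 8, 102648784 to 102655725) and KLF11 (Gene ID 8462, chromosome 2, 10043550 to 10054836) were first described as genes that TGF-beta induces early. KLF10 measured 70.9, 71.6 and 73.9 CPM in the control libraries against 78.6, 74 and 73.0 CPM after knockdown, which is 0.06 on the log2 scale (95% interval −0.04 to 0.16, adjusted p = 0.311). KLF11 was at 27.8, 27.0 and 29.2 CPM against 28.97, 25.88 and 27.89 CPM (−0.02, 95% interval −0.18 to 0.14, adjusted p = 0.845). For both genes the libraries of the groups were interleaved, and the intervals leave room for a rise of at most 11.9% for KLF10 and 9.83% for KLF11.

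KLF9 (Gene ID 687, chromosome 9, 70384604 to 70414657), a gene that glucocorticoids and thyroid hormone induce, was at 35.3, 34.7 and 34.7 CPM in shNC and at 34.5, 36.0 and 37.1 CPM in shRRM2 (0.04, 95% interval −0.10 to 0.18, adjusted p = 0.638). KLF13 (Gene ID 51621, chromosome 15, 31326835 to 31435665), which activates the chemokine gene CCL5 in T cells, was at 94.0, 90.7 and 89.1 CPM against 95.4, 83.8 and 91.9 CPM (−0.02, 95% interval −0.11 to 0.08, adjusted p = 0.810). It was the member with the most reads in the control libraries, and its knockdown libraries spread on both sides of them. KLF16 (Gene ID 83855, chromosome 19, 1852399 to 1876536), a repressor, was at 52.3, 48.8 and 44.5 CPM in shNC and at 42.7, 46.7 and 46.5 CPM in shRRM2. Its log2 fold change was −0.10 (95% interval −0.23 to 0.03, adjusted p = 0.188), and without shNC replicate 3, the lowest control library, it passed at −0.16 (adjusted p = 0.0488).

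In all, 5 of 10 members were higher and 0 lower, beside 26.0% and 26.1% of all tested genes. The share of members past the threshold in either direction was thus close to the 52.1% of all tested genes, and the call rate alone does not set the family apart. The count of 0 lower was the same at an unadjusted p below 0.05 and by DESeq2 and limma-voom, which like edgeR called 5 members higher. For 5 members, and for 57.8% of all tested genes, no CPM value of one group lay within the range of the other. The median log2 fold change was 0.16 over the members and −0.01 over all tested genes. KLF2 was the only member past a log2 fold change of 1, a size that 6.43% of tested genes reached with an adjusted p below 0.05. By the size of its change KLF2 stood at the 98.4th percentile of tested genes, KLF6 at the 89.6th and KLF7 at the 71.5th, while KLF3 and KLF4 were near the middle at the 49.6th and 51.5th.

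Among the 10 members, the calls followed the classes, but KLF5, a further expressed activator, did not pass, so the split does not hold for the class as a whole. The 95% intervals of the 4 activators started at 1.252 for KLF2, 0.66 for KLF6, 0.22 for KLF7 and 0.18 for KLF4, and that of KLF3 started at 0.13. The highest upper limit in the SIN3A-binding class was 0.18, that of KLF9. The intervals of KLF2, KLF6 and KLF7 thus lay above all 5 of that class, that of KLF4 began next to the upper limit of KLF9 (0.177 against 0.176), and that of KLF3 overlapped those of KLF9, KLF10 and KLF11. The difference between classes was not tested, since the classes hold 4, 1 and 5 genes. Summed over the 4 activators among the members, the level was 120.6, 121.4 and 123.4 CPM in shNC and at 162.1, 172.5 and 159.5 CPM in shRRM2. The SIN3A-binding class was at 280.2, 272.9 and 271.2 CPM against 280.2, 266.3 and 276.3 CPM. All libraries of the activator sum were apart by group, by 42.9 CPM between the means, whereas the SIN3A-binding means differed by −0.5 CPM. Each of the 4 summed activators was already apart by group, so the separation of their sum follows from them and adds nothing on the classes. Most of the 42.9 CPM came from KLF6 (18.6 CPM) and KLF4 (17.1 CPM). KLF5, left out of the sum, had a control mean of 98.0 CPM and a knockdown mean of 94.1 CPM. The 10 members together took 434 to 441.8 CPM in shNC and 485.6 to 488.7 CPM in shRRM2.

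**Figure D2:**
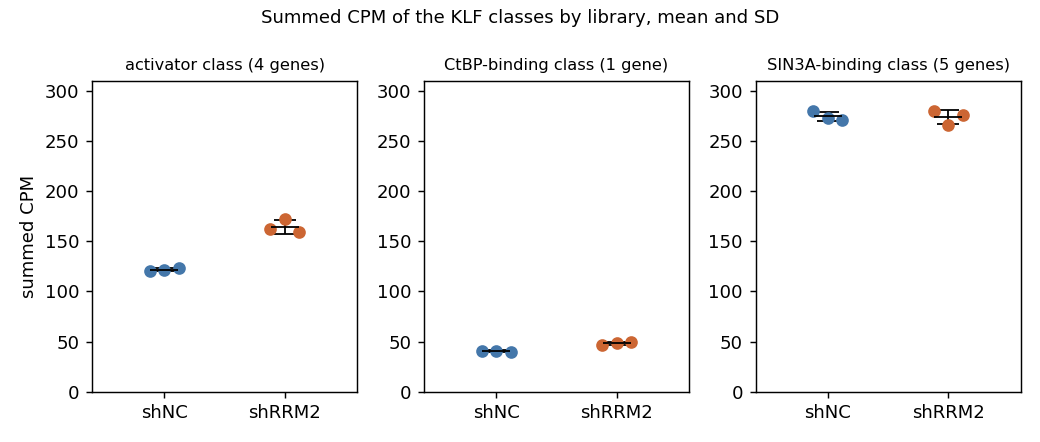
Summed CPM of the members of each KLF class in each library (KLF5 is not included) (points), with mean and SD of 3 libraries per group, on a common vertical axis from 0. The activator sum lies at 120.6 to 123.4 CPM in shNC and 159.5 to 172.5 CPM in shRRM2, while the SIN3A-binding sums of the groups overlap.

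Levels of different genes were compared per length, as RPKM, which divides CPM by the total exon length of the gene in kilobases (GENCODE 29, basic transcripts). Where a cell uses only short transcripts of a gene, this understates its level. In the control, KLF4 had the highest level at 28.5 ± 0.572 RPKM (SD, n = 3). KLF10 at 18.01 ± 0.391 RPKM and KLF16 at 16.4 ± 1.34 RPKM followed, and the ranges of these 2 genes met at 17.7 RPKM. KLF13 was next at 13.3 ± 0.365 RPKM, below every KLF16 library. KLF9 (6.74 ± 0.0625 RPKM), KLF3 (6.72 ± 0.141 RPKM) and KLF11 (6.51 ± 0.253 RPKM) had overlapping ranges and could not be ordered. At the low end were KLF6 with 4.14 ± 0.235 RPKM, KLF7 with 1.42 ± 0.0831 RPKM and KLF2 with 0.607 ± 0.0639 RPKM, each clear of its neighbours.

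In the knockdown the order of the upper 4 genes was the same, with KLF4 at 34.3 ± 1.52 RPKM and KLF10, KLF16 and KLF13 at 18.8, 15.3 and 13.1 RPKM, now without overlap between neighbours. The lower part of the order differed. KLF6, the eighth member in shNC, was sixth in shRRM2 at 7.25 ± 0.214 RPKM, behind KLF3 at 8.03 ± 0.288 RPKM and overlapping KLF9 at 6.93 ± 0.259 RPKM. KLF2 at 2.05 ± 0.511 RPKM and KLF7 at 1.92 ± 0.181 RPKM overlapped, where KLF7 had been above KLF2 in every control library. As a share of the family's summed RPKM, KLF6 took 4.05% ± 0.268 in shNC and 6.35% ± 0.167 in shRRM2, KLF2 took 0.593% ± 0.0613 and 1.80% ± 0.429, and KLF4 27.9% ± 0.666 and 30.1% ± 1.01 (SD, n = 3 each).

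**Figure D3:**
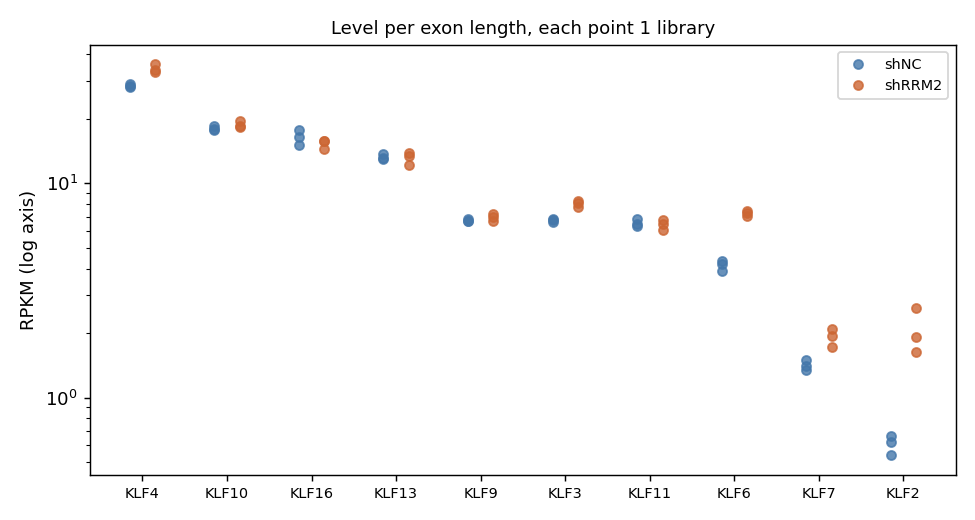
RPKM (log axis) of each KLF member in each of the 6 libraries, ordered by the mean in shNC. KLF4 is highest in both groups, and KLF2 and KLF7, apart in shNC at 0.607 and 1.42 RPKM, overlap in shRRM2.

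Of the 17 other KLF and SP genes, 9 passed the filter, of which 2 were higher and 3 lower (median −0.06). Among all tested genes these shares were 26.0% and 26.1%. KLF12, a CtBP-binding repressor like KLF3, was at 17.2 ± 1.55 CPM in the control and fell to 13.3 ± 1.41 CPM (SD, n = 3 each), a change of −0.38 on the log2 scale (SE 0.106, adjusted p = 0.00339) that is opposite in direction to KLF3. KLF8, which also binds CtBP, had 0 counts in every library. SP3, a widely expressed factor that shares GC boxes with SP1, fell from 73.0 ± 2.02 to 64.2 ± 1.82 CPM (−0.18, SE 0.0503, adjusted p = 0.00263). SP1 itself, the most abundant SP gene by reads, was at 209.9 ± 9.73 and 202.5 ± 3.53 CPM (−0.05, adjusted p = 0.255). SP2 was lower at −0.19 (adjusted p = 0.0410) but did not pass without any 1 of the 6 libraries (adjusted p from 0.0558 to 0.168). The SP2 call was also lost with DESeq2, library size alone or no filter (adjusted p = 0.0838, 0.104 and 0.0708).

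KLF5, an activator of the same class as KLF4 and common in epithelia, was not past the threshold, with 98.0 ± 5.87 CPM in the control and 94.1 ± 3.46 CPM after knockdown (log2 fold change −0.06, adjusted p = 0.340). KLF17, a factor known from early embryos, rose from 3.73 ± 0.698 to 5.98 ± 0.772 CPM (0.69, SE 0.180, adjusted p = 0.00157). SP9, a factor of the developing forebrain and limb, was counted 6, 4 and 4 times in shNC and 20, 51 and 25 times in shRRM2 (log2 fold change 2.76, SE 0.469, adjusted p = 7.50e-06). It was the only gene of these lists of KLF and SP genes that passed the filter through the knockdown libraries alone, so it could enter only as a gene higher there. Below the filter were KLF1, KLF14, KLF15 and KLF18 with 6 to 30 counts over all 6 libraries, KLF8 with none, and SP5, SP7 and SP8 with 47, 1 and 16 counts.

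**Figure D4:**
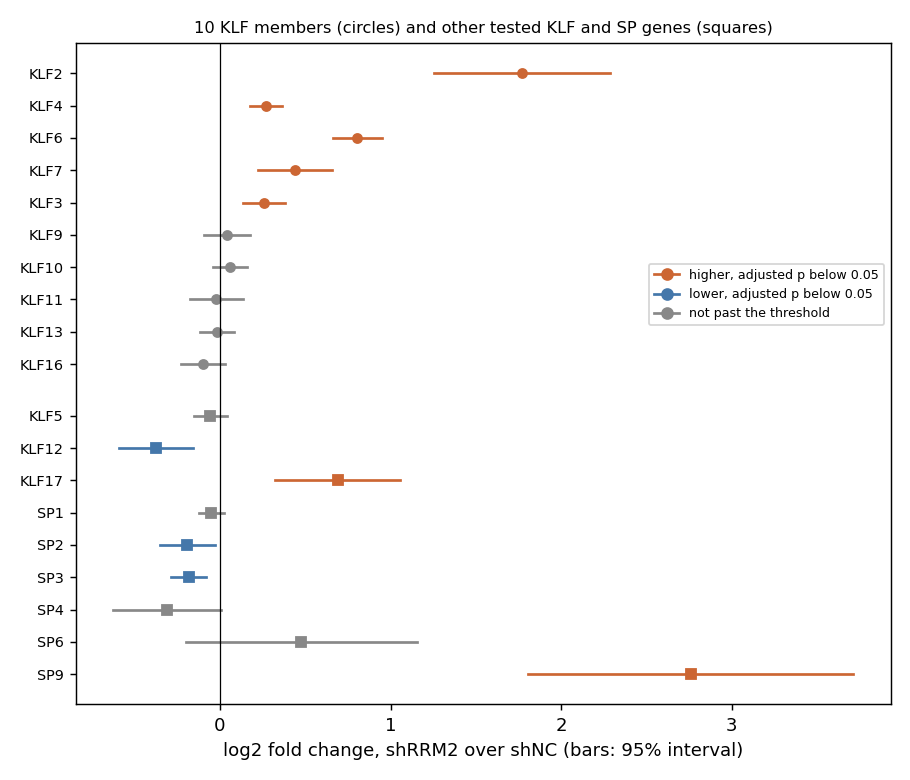
Log2 fold change of shRRM2 over shNC with its 95% interval for the 10 KLF members (circles) and the other tested KLF and SP genes (squares), coloured by the edgeR call. The intervals of KLF2, KLF4, KLF6, KLF7 and KLF3 lie above 0, those of the SIN3A-binding members span 0, and KLF12, SP2 and SP3 lie below 0.

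The proteins through which KLF factors act were also measured as transcripts. Of 20 cofactor genes, 5 were higher, 6 lower and 9 not past the threshold, with a median of −0.03. Among all tested genes 26.0% were higher and 26.1% lower. The corepressor scaffolds of the SIN3 family moved in opposite directions. SIN3A, at 89.9 ± 3.53 CPM in the control, fell to 73.5 ± 1.95 CPM (−0.29 on the log2 scale, SE 0.0479, adjusted p = 4.66e-06), and SIN3B rose from 112.2 ± 3.38 to 140.0 ± 1.90 CPM (0.32, SE 0.0397, adjusted p = 2.62e-08). Likewise, among the deacetylases, HDAC2 was lower at −0.32 and HDAC3 higher at 0.32. FHL3, a LIM protein that can bind KLF3, rose by 0.25 (adjusted p = 0.00143). Named outside the rule, CTBP1 and CTBP2, the corepressors that KLF3 recruits, fell from 100.3 to 88.7 CPM and from 80.80 to 69.99 CPM. The acetyltransferase genes EP300 and CREBBP, also outside the rule, were at −0.03 and −0.07 and did not pass, although CREBBP was lower without shRRM2 replicate 1 (−0.10, adjusted p = 0.0438). KAT2B, another acetyltransferase, was lower at −0.31 (adjusted p = 0.0358), but not past the threshold without shNC replicate 2 or 3 or shRRM2 replicate 1 or 2 (adjusted p = 0.119, 0.222, 0.0598 and 0.180). The KAT2B call was also lost with DESeq2 or library size alone (adjusted p = 0.0760 and 0.0708).

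Among 24 genes upstream of KLF transcription 21 were tested, 9 of them higher and 5 lower (median 0.06). The shares over all tested genes were 26.0% and 26.1%. The route from the kinase ERK5 through MEF2 factors to KLF2 and KLF4 was uneven. MAP3K2, a kinase at the top of that route, rose from 88.2 ± 2.87 to 118.2 ± 3.32 CPM (log2 fold change 0.42, adjusted p = 5.38e-10). MAP3K3, listed beside it, was at 35.8 and 37.4 CPM (0.06, adjusted p = 0.435) and did not pass. MAP2K5, which activates ERK5, was at 11.5 and 11.9 CPM (0.06) and did not pass. MAPK7, the gene of ERK5 itself, was higher at 0.23 (adjusted p = 0.0135) but lost the call without shNC replicate 1, shNC replicate 2 or shRRM2 replicate 1 (adjusted p = 0.0509, 0.102 and 0.0975). Of the MEF2 genes, MEF2A was lower at −0.33, MEF2D was at 0.02, and MEF2B and MEF2C were below the filter with at most 7 counts in a library. MAP3K3, MAP2K5, MAPK7 and the MEF2 genes were named outside the rule.

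The TGF-beta receptors and SMAD genes, which act before KLF10 and KLF11, split as well. TGFBR2 and SMAD3 rose by 0.45 and 0.41 on the log2 scale, and TGFBR1, SMAD2 and SMAD4 were lower at −0.81, −0.46 and −0.36. Upstream of KLF9, the thyroid hormone receptor gene THRA fell from 81.6 to 67.6 CPM (−0.27, adjusted p = 4.39e-05), and THRB was below the filter. The glucocorticoid receptor gene NR3C1, also upstream of KLF9, was at 94.5 and 90.4 CPM (−0.06) and did not pass. These receptor genes were named outside the rule. Of 8 tested genes that glucocorticoids induce in many cells, 3 were higher and 1 lower (median 0.03), beside 26.0% and 26.1% of all tested genes. FKBP5, TSC22D3 and PER1, the most used readouts of the receptor and named outside the rule, were at −0.0028, 0.04 and 0.03, none past the threshold, while the metallothionein MT2A and the EGFR inhibitor ERRFI1 rose by 0.44 and 0.42, DUSP1 by 0.31, and SGK1 fell by 0.36.

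Of 30 genes described as KLF targets, 24 were tested, 13 higher and 4 lower, beside 26.0% and 26.1% of all tested genes. Their median was 0.34, beside −0.01 over all tested genes. The list was drawn up with earlier results of these data known. THBD, the anticoagulant receptor thrombomodulin and a KLF2 target in endothelium, was counted 28, 18 and 14 times in shNC and 39, 59 and 58 times in shRRM2 (log2 fold change 1.39, SE 0.301, adjusted p = 0.000210). Of other endothelial genes on the list, NOS3 was at 0 to 7 counts per library and S1PR1 at 10 to 23, the latter not past the threshold (0.60). EDN1, named outside the rule, was more abundant at 9.88 and 11.7 CPM. It did not pass (log2 fold change 0.25, adjusted p = 0.0851), except with library size alone or without shRRM2 replicate 2 (adjusted p = 0.048 and 0.0436). CDH1 (E-cadherin), a KLF4 target, rose by 1.43 from 0.860 to 2.36 CPM, and MAOA, a target of KLF11, by 1.95 from 0.502 to 2.02 CPM. All 3 rises thus started from about 1 CPM or less, and MAOA, with 1 control library at or above 0.56 CPM, passed the filter through the knockdown libraries.

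More abundant targets gave values with less error. CDKN1A (p21), which KLF4 and KLF6 activate, rose from 146.3 ± 1.1 to 192.9 ± 3.2 CPM. TGFB1, ENG, COL1A1 and PLAU, described as activated by KLF6, rose by 0.60, 0.29, 0.73 and 1.37, whereas TGFBR1 from the same group of KLF6 targets fell by 0.81. CCND1, which KLF4 represses, was lower at −0.49 (SE 0.0327, adjusted p = 2.09e-14). MYC, described as repressed by KLF11, was lower at −0.80 (SE 0.0323, adjusted p = 3.55e-20), and SMAD7, repressed by KLF10 and KLF11, was at 0.13 and did not pass except without shNC replicate 2 (0.21, adjusted p = 0.0457). LGALS3, which KLF3 represses, stood at 140.0 and 143.0 CPM (0.03). The genes CDKN1A, TGFB1, ENG, COL1A1, PLAU, SMAD7 and LGALS3 were named outside the rule.

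KLF4, KLF6 and KLF10 share their fast induction with the immediate early genes. Of 20 tested genes of that kind, 10 were higher and 3 lower (median 0.13), beside 26.0% and 26.1% of all tested genes. FOSB rose from 3.68 ± 0.826 to 15.3 ± 1.23 CPM (log2 fold change 2.04), the matricellular gene CCN1 by 1.079 and the stress factor ATF3 by 1.07. MYC and JUND were lower at −0.80 and −0.41. MCL1, a survival factor, was lower at −0.09 (adjusted p = 0.0212), but not without shNC replicate 2 or shRRM2 replicate 2 (adjusted p = 0.0855 and 0.160). The MCL1 call was also lost with library size alone (adjusted p = 0.190). EGR1, named outside the rule, was at 5.11 and 4.09 CPM and did not pass. Genes on these lists overlap in 5 cases, MYC, ATF3, DUSP1, TGFBR1 and TGFBR2.

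**Figure D5:**
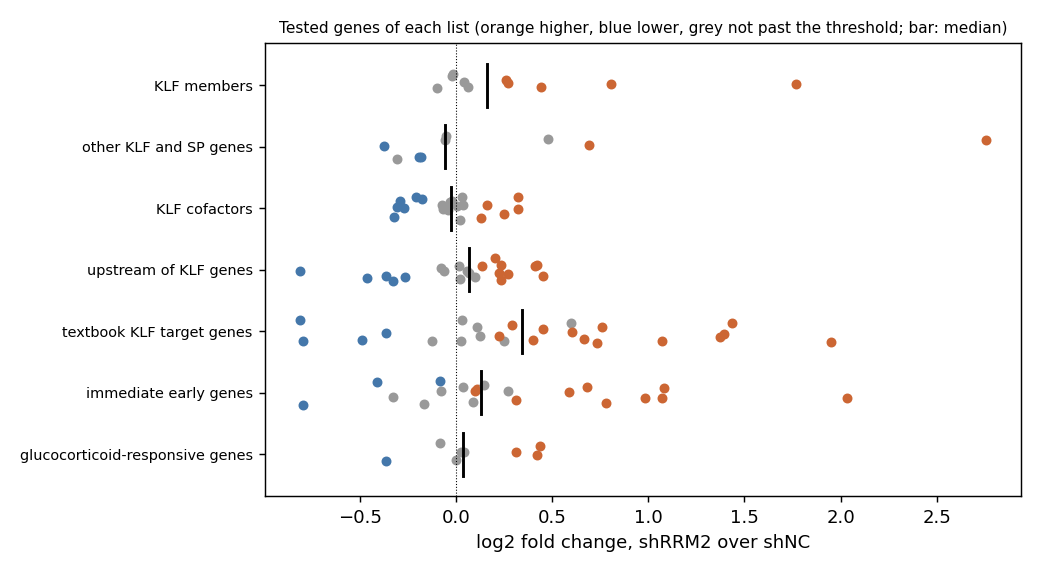
Log2 fold change of shRRM2 over shNC for each tested gene of the 7 lists (points; orange higher, blue lower, grey not past the threshold), with the list's median as a bar. The KLF members that moved all lie to the right of 0, while the cofactor and upstream lists hold genes on both sides, with medians of −0.03 and 0.06.

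KLF2 is abundant in endothelial and lymphoid cells, so markers of other cell types were read beside it. For the counts of markers below, the shares over all tested genes were 26.0% higher and 26.1% lower. Of 8 endothelial markers 4 were tested and 3 were higher, CDH5, VWF and ESAM. VWF was below the filter's 0.56 CPM in all 3 control libraries, so it could enter only as a gene higher in the knockdown. The list's summed level was 67.7 to 73.9 CPM in shNC and 93.2 to 96.6 CPM in shRRM2. Nearly all of that sum was ESAM and EGFL7. The defining marker KDR was at 0 in every library, and PECAM1, TEK and CLDN5 had 17, 21 and 11 counts over all 6. Among immune markers, CD68, also a lysosomal protein, rose from 26.0 ± 0.687 to 82.6 ± 1.83 CPM, and LAPTM5 from 2.00 ± 0.629 to 4.04 ± 0.428 CPM (SD, n = 3 each; adjusted p = 4.58e-22 and 0.000550). CD3E was at 0 counts in every library, and PTPRC, LYZ and CD52 had 5, 1 and 3 counts over all 6. CD14, below the filter, was counted 8, 11 and 14 times in shNC and 6, 7 and 4 times in shRRM2. Of 8 fibroblast markers, summed at 27.6 to 29.6 CPM and 61.2 to 66.0 CPM, 3 of 3 tested were higher. PDGFRB rose from 9.10 ± 0.364 to 28.6 ± 1.98 CPM (adjusted p = 7.00e-16) and COL1A1 from 19.3 ± 1.01 to 32.0 ± 0.705 CPM (adjusted p = 1.32e-09). FAP, also among the 3 tested, was below 0.56 CPM in every control library and passed the filter through the knockdown alone. PDGFRA had 3 counts in total. Among 8 epithelial markers, summed at 2523 to 2617 CPM and 3364 to 3423 CPM, KRT8, KRT18 and KRT7 were abundant, 5 of 6 tested were higher and 1, KRT7, lower. EPCAM, 1 of the 5, was also below 0.56 CPM in every control library, and its call was lost with DESeq2 (adjusted p = 0.0686), with no filter (0.0639) and without shNC replicate 1 or 2 or shRRM2 replicate 1 or 2 (adjusted p = 0.0666, 0.142, 0.0528 and 0.0776). KRT7 was at −0.07 (adjusted p = 0.0442) and did not pass without shNC replicate 1 or 2 or shRRM2 replicate 1 or 3 (adjusted p = 0.123, 0.157, 0.117 and 0.195). The KRT7 call was also lost with DESeq2, RLE factors or library size alone (adjusted p = 0.0678, 0.0558 and 0.333). With no filter or a filter of at least 1 CPM in 3 libraries it was lost too (adjusted p = 0.0575 and 0.0678). KRT19, a usual marker of ductal cells, had 22 counts in total. The part of these marker changes in the KLF values was not tested.

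Over the 6 libraries, the tested genes whose log2 CPM followed that of KLF2 most closely were MVP, HMOX2 and GSTM3, with Pearson's r of 0.9992, 0.9985 and 0.9983. Their log2 fold changes were 0.09, 0.36 and 0.42, far smaller than that of KLF2. In all 4 genes shRRM2 replicate 2 was the highest library. All 6 points share 2 groups and their depth. These genes were picked for the highest r among all tested genes with a symbol, so high values come with the choice. Shared regulation with KLF2 was not tested. MVP did not pass the test (adjusted p = 0.0643), except with a filter of at least 1 CPM in 3 libraries or with library size alone (adjusted p = 0.0380 and 0.00763).

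Reads of overlapping genes could be counted with a member, as the strand setting is not given in the sources used here. The overlapping noncoding genes were KLF3-AS1, LOC124900273 (in KLF9), KLF9-DT (over the start of KLF9 only), LOC105370939 (in KLF13) and the miRNA genes within KLF7. They had 0 to 26 counts per library, against at least 571 counts for KLF3, KLF9 and KLF13 and 190 for KLF7.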

How the data were processed

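RNA was measured in 6 libraries made from polyadenylated RNA with a directional NEB kit, per the labels' protocols. The authors deposited read counts, whole numbers by NCBI Gene ID, which they made with fastp 0.23.4 and featureCounts on the hg38 build, per the submitters' processing notes. The aligner, annotation release, strand setting and treatment of multi-mapping reads were not given in the sources used here. The table's columns name the RRM2 libraries si where the labels have sh, and were matched by gene name and number. Gene IDs were matched to RefSeq symbols (GRCh38.p14) for 40120 of 42902, and unmatched IDs held 1.25% of the counts.

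Genes were filtered with edgeR's filterByExpr, which asked for 0.56 CPM in 3 libraries and left 15866. TMM factors and a robust quasi-likelihood fit on group alone were used (edgeR 4.0.16, limma 3.58.1, R 4.3.3; two-sided, Benjamini-Hochberg over all tested genes, threshold 0.05). Each SE was derived from the fold change and its F statistic. With 3 against 3 libraries an exact permutation test cannot go below p = 0.1 and was not used. Alternatives were RLE factors, library size alone, other filters, DESeq2 1.42.0, limma-voom, a replicate block, a threshold of 0.01 and leaving out each library.

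The members and lists were chosen with earlier results of these data known. Named outright were all members, RRM2, the KLF and SP genes past the threshold and, per further list, the 3 largest rises and 3 largest falls past the threshold with a mean of at least 1 CPM. The nearest 3 genes to the most changed member were named by Pearson's r. In simulated counts for shRRM2 against shNC over 15866 genes, 200 genes were changed in each of 5 draws. Of genes changed 1.25-, 1.5- and 2-fold, 51.1%, 74.6% and 84.4% were recovered, and 9.18% of calls were false, above the nominal rate. Far fewer genes were changed there than were called in the data, so these shares need not hold for the data. The result of 1 immune marker, and the counts and sums of that list, are not reported here.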

Additional observations from a re-analysis of the deposited data

How the results depend on the processing

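All 5 rises among the KLF members kept their direction and their call under each of the 14 alternatives, with log2 fold changes from 1.56 to 1.91 for KLF2, 0.76 to 0.84 for KLF6, 0.38 to 0.51 for KLF7, 0.24 to 0.31 for KLF4 and 0.24 to 0.30 for KLF3. The members that did not pass stayed below the threshold in all alternatives except for KLF16, which made the number of members lower in shRRM2 range from 0 to 1 when a library was left out. At a threshold of 0.01, the number of upstream genes that were higher was 5 in place of 9, since the test asks for more. The libraries share replicate numbers only: the correlations of deviations from the group mean for equal numbers were −0.00677, −0.00339 and −0.0208. With the replicate block, 4102 genes were higher and 4142 lower, against 4119 and 4142 without it, and 5 members were higher and 0 lower. With library size alone, 56.2% of called genes were higher, against 49.9%, and the median of all tested genes moved by 0.0378. Depth limits KLF2 most, with 22 to 25 counts in a control library. Of 1636 values of other named or listed genes under alternatives, 84 lost and 15 gained a call, and 0 changed direction while called.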

Other observations

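KLF11 lies near the targeted gene. It ends 67731 bases before the start of RRM2 on chromosome 2 (KLF11 at 10043550 to 10054836, RRM2 at 10122568 to 10211010, GRCh38). While RRM2 was lower by −2.31 on the log2 scale, KLF11 was at −0.02 (adjusted p = 0.845). The noncoding gene LOC105373424, annotated within the bounds of RRM2, was counted 87, 144 and 99 times in shNC and 29, 19 and 21 times in shRRM2 (log2 fold change −2.21, SE 0.227, edgeR adjusted p = 5.47e-10), and without a stated strand setting its reads cannot be told apart from those of RRM2. KLF11-DT, a noncoding gene beside the start of KLF11, was counted 9, 34 and 12 times in shNC and 31, 27 and 41 times in shRRM2. The groups overlapped, and its log2 fold change of 0.92 (edgeR adjusted p = 0.0340) did not pass without shNC replicate 1 or 3 or shRRM2 replicate 1 or 3 (adjusted p = 0.164, 0.109, 0.0622 and 0.158) or with DESeq2 (adjusted p = 0.0602). Both noncoding genes were chosen after their values were seen.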
